A study of Mus musculus with 4 samples.

Results

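Abcg1, Abca1, Apoe, Nr1h3, Mylip and Srebf1 were followed as the genes of sterol efflux and of the liver X receptor (LXR), in every marker-defined cell class of mouse tibial bone marrow. They are 6 of the 31053 genes in the count matrices and were taken by symbol. LXR is a nuclear receptor that binds oxysterols and, paired with the retinoid X receptor, switches on genes that carry cholesterol out of the cell. The transporters Abca1 and Abcg1 load lipid onto apolipoproteins and high-density lipoprotein, Apoe is such an apolipoprotein, Mylip encodes a ubiquitin ligase induced by LXR, and Srebf1 encodes the factor that drives fatty acid synthesis. Nr1h3 encodes LXR alpha itself, and the system is best known in macrophages that clear dead cells and in fat-storing cells.

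The 4 libraries came from C57Bl/6JCrl mice. The irradiated Vegfc-deleted library held cells pooled from 2 Rosa26-CreERT2; Vegfc flox/flox mice given 4 Gy of total body irradiation, and the irradiated control library held cells pooled from 2 Vegfc flox/flox mice given the same dose. The non-irradiated Vegfc-deleted and non-irradiated control libraries held cells pooled from 3 mice of each genotype. Tamoxifen was given in 5 intragastric doses at 7 to 8 weeks of age, irradiation followed 2 weeks later and marrow was taken 7 days after that. One passage of the labels gives tamoxifen to both genotypes and another to 3 of the 4 samples, and the labels count 3 irradiated mice a genotype where 2 were pooled. Rosa26 drives the inducible Cre in all cell types, so the deletion was not limited to a cell type. Sorted DAPI- Lin- CD45- Ter119- cells went through 10x Chromium 3' sequencing. Each group is 1 library of pooled mice, so the spread between animals is not known, no test between groups was made, and every interval below is an exact 95% interval that covers counting error only.

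In the mm10 (GRCm38) annotation the 6 genes are protein coding and lie apart from each other. Abcg1 (ENSMUSG00000024030) is at chr17:31057675-31117988 on the plus strand and Abca1 (ENSMUSG00000015243) at chr4:53030787-53159895 on the minus strand. Apoe (ENSMUSG00000002985) is at chr7:19696109-19699188 on the minus strand and Nr1h3 (ENSMUSG00000002108) at chr2:91184061-91202834 on the minus strand. Mylip (ENSMUSG00000038175) is at chr13:45389742-45412022 on the plus strand and Srebf1 (ENSMUSG00000020538) at chr11:60199089-60222581 on the minus strand.

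RefSeq promoter windows (GRCm38.p6, 250 bases before to 50 bases after a transcript start) were at hand for 5 of the 6 genes, 10 windows in all, and Abcg1 had none. LXR binds 2 copies of a short repeat separated by 4 bases. Written strictly as AGGTCA, any 4 bases and AGGTCA again, on either strand, this repeat was in 5 of 32851 windows genome-wide (0.0152%) and in none of the 10. Written loosely as GGTNA, any 5 bases and GGTNA again, on either strand, which also takes many forms that LXR may not bind, it was in 236 windows (0.718%), among them the Abca1 window and 1 of 3 Srebf1 windows. These 2 windows are shown because they hold the match, in capitals, on the strand of the gene, where the repeat reads backwards. A match is a description of letters and not a measured binding site.
Abca1 (chr4:53159846-53160145, minus strand): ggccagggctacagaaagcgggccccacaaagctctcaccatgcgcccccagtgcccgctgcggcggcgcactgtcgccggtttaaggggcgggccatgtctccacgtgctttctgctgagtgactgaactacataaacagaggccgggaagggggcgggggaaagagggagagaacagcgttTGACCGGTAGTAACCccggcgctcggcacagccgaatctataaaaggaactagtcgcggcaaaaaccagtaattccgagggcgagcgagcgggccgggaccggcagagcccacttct
Srebf1 (chr11:60210422-60210721, minus strand): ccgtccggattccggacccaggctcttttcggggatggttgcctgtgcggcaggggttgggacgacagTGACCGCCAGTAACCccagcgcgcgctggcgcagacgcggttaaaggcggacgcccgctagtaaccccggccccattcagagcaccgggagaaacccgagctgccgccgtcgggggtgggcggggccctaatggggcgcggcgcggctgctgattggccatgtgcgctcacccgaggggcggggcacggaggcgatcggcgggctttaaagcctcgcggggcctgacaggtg

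Read on the other strand, the Abca1 element is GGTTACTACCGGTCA, 67 to 53 bases upstream of the start, and the Srebf1 element is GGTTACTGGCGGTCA, 182 to 168 bases upstream. The sterol regulatory element, written as ATCAC, any 1 base and CCAC on either strand, was in 77 windows genome-wide (0.234%) and in none of these. The E box CACGTG, in 7.15% of windows, was in the Abca1 window alone, and the GC box GGGCGG, in 35.7%, was in the windows of Abca1, Mylip and 2 of 3 of Srebf1.

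The deposited matrices held 5134, 5150, 7737 and 7454 barcodes in the irradiated Vegfc-deleted, irradiated control, non-irradiated Vegfc-deleted and non-irradiated control libraries, the order of every list of 4 values here. They held 54462123 to 77284922 unique molecular identifiers (UMIs) a library, and 3837 to 5211 cells a library passed the filters. Pairs of libraries shared 13 to 24 barcodes, except both non-irradiated libraries, which shared 117, 21 of them among kept cells. Vegfc was at 18.4 and 151 CPM (UMIs per 1000000 UMIs of the class) in irradiated Vegfc-deleted and control LepR+ stromal cells and at 18.3 and 168 CPM in the non-irradiated ones, lower in both Vegfc-deleted libraries. Although the sort was against CD45 and Ter119, erythroid, neutrophil and lymphoid cells were abundant. Cells fell into 36 clusters, of which 6 stayed unnamed, and the class names below stand for cells like that type by their marker genes.

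The LepR+ stromal class, the cells that make stem cell factors and can turn into marrow fat, had 159, 455, 632 and 1084 cells. Its defining markers were present in all libraries, with Lepr at 798, 1375, 1794 and 1730 CPM and Cxcl12, the chemokine that holds stem cells in the marrow, at 12188 to 24674 CPM. The sinusoidal endothelial class had 677, 1430, 361 and 306 cells, with the scavenger receptor Stab2 at 1642, 1722, 1097 and 1583 CPM. The monocyte or macrophage class had 550, 137, 78 and 45 cells, at median UMIs per cell of 10241, 2458, 1219 and 1301. Different clusters held most of the first 2 classes with and without irradiation. Cluster 11 held 127 and 383 of the irradiated LepR+ stromal cells against 8 and 10 non-irradiated ones, and cluster 3 held 7 and 14 against 478 and 869. Cluster 13, the one with over 20 cells in every library, held 25 and 58 against 146 and 205. Its marker scores were 7.31 for LepR+ stromal and 5.59 for osteolineage cells. With finer clustering (resolution 2), a cluster also led by Mmp13 and Spp1 scored 6.5 and 6.23 and stayed unnamed. It held 25, 61, 37 and 91 cells, so cluster 13 may not be the same mixture in each library. Sinusoidal cells lay in cluster 0 (674, 1417, 50 and 18) or in cluster 8 (3, 13, 311 and 288).

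**Figure D1:**
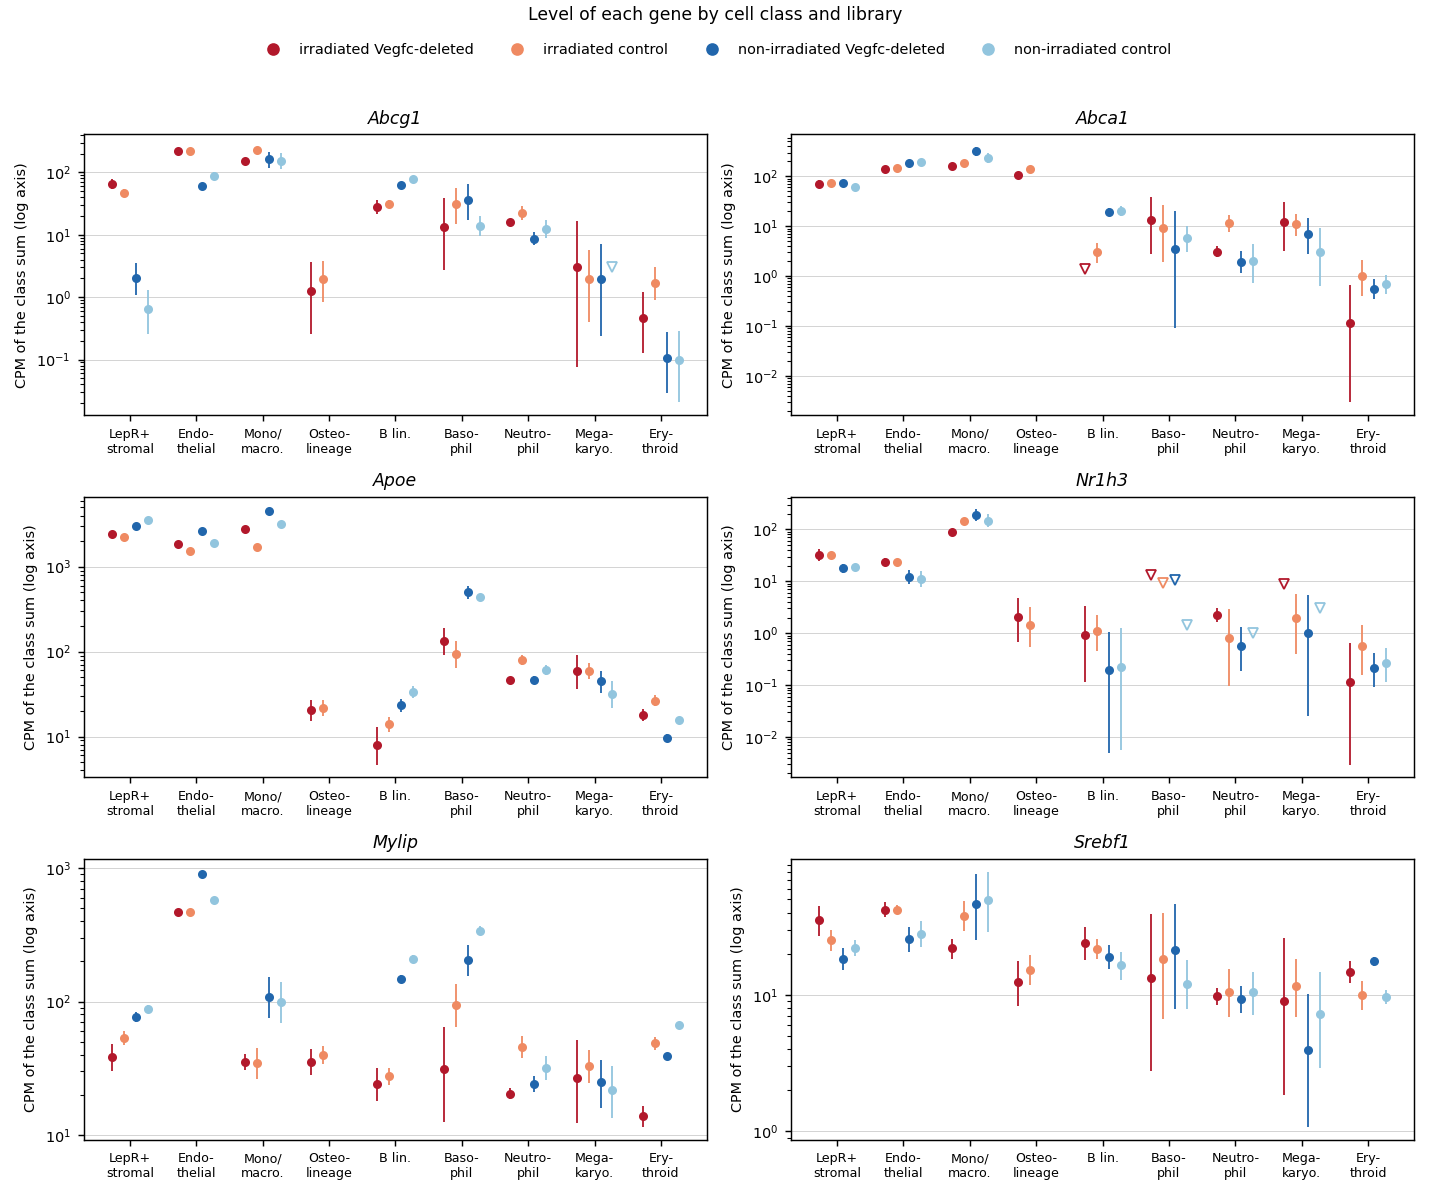
Level of each of the 6 genes in 9 cell classes, in CPM on a log axis. Points are libraries, coloured by group and drawn where a class had at least 20 cells; bars are exact 95% intervals and open triangles mark a count of 0, drawn at the level of 3 counts. In the LepR+ stromal class Abcg1 was at 64.3 and 47.0 CPM in the irradiated libraries, against 2.05 and 0.639 CPM in the non-irradiated ones, while Abca1 was between 62.2 and 73.9 CPM in all 4.

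Abcg1, which passes cholesterol to high-density lipoprotein, showed the widest difference of the 6 genes. LepR+ stromal cells held 64.3 and 47.0 CPM in irradiated Vegfc-deleted and control mice, from 119 and 248 UMIs, against 2.05 and 0.639 CPM in non-irradiated Vegfc-deleted and control mice, from 13 and 7 UMIs. Both irradiated libraries lay above both non-irradiated ones, with no overlap of the intervals. The irradiated over non-irradiated log2 ratio was 4.92 (4.14 to 5.92) in Vegfc-deleted and 6.10 (5.13 to 7.53) in control mice, about 30.3-fold and 68.7-fold. At least 1 Abcg1 UMI was found in 49 of 159 and 118 of 455 irradiated cells (30.8% and 25.9%), against 13 of 632 and 7 of 1084 non-irradiated cells (2.06% and 0.646%). Among erythroid cells, given as a background, 0.957%, 1.11%, 0.179% and 0.144% held an Abcg1 UMI, at class levels of 0.466, 1.71, 0.107 and 0.0997 CPM. RNA of other cells was not equal in both classes, so this share sets no ceiling for stromal cells. In irradiated Vegfc-deleted mice the neutrophil genes S100a8 and S100a9 stood at 25585 CPM in LepR+ stromal and 553 CPM in erythroid cells. With every cell thinned to 1500 UMIs, 8.18% and 4.87% of irradiated LepR+ stromal cells against 0.317% and 0% of non-irradiated ones held it, and the last share has an upper bound of 0.340%.

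Within the class the level went with the cluster. Cluster 11, led by Cfd and Cdh11, had 85.2 and 56.7 CPM of Abcg1 in the irradiated libraries, and its 10 non-irradiated control cells had 0 counts. Cluster 3, led by the bone sialoprotein gene Ibsp and the BMP antagonist gene Grem1, had 0 counts in 14 irradiated control cells and 0.845 and 0.695 CPM in the non-irradiated libraries. In cluster 13, led by Mmp13 and Spp1 and the only one well filled in all 4 libraries, Abcg1 was at 19.2 and 12.1 CPM in irradiated against 5.91 and 0.448 CPM in non-irradiated mice, from 10, 12, 9 and 1 UMIs. Its log2 ratios were 1.69 in Vegfc-deleted and 4.23 in control mice, smaller than those of the whole class and in the same direction. Cluster 11 held few non-irradiated cells, so a change within cells and a change in cell mixture cannot be told apart. Unnamed cluster 15, whose leading genes mixed stromal and antibody transcripts, gave 65.6 and 48.5 CPM in irradiated against 2.91 CPM and 0 counts in non-irradiated mice.

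Abcg1 UMIs were concentrated in few stromal cells. The top 5% of irradiated cells held 41.2% of them in Vegfc-deleted and 44.8% in control mice, and single cells held up to 10 and 11 UMIs. Irradiated LepR+ stromal cells with an Abcg1 UMI, thinned to 1500 UMIs, had 8490 CPM of Fabp4, the fatty acid binding protein of fat cells, in Vegfc-deleted and 4220 CPM in control mice, against 442 and 852 CPM in cells without one. Plin1, which coats lipid droplets, was at 163 and 107 CPM with and at 12.1 and 2.00 CPM without an Abcg1 UMI. The fatty acid transporter gene Cd36 was at 449 and 260 CPM with and 54.5 and 47.9 CPM without, and Pparg, the master regulator of fat cells, at 218 and 271 against 109 and 122 CPM. Ibsp ran the other way, at 1007 and 220 CPM with and 3261 and 2747 CPM without. Apoe (3170 and 2672 against 2915 and 2208 CPM) and Abca1 (95.2 and 96.0 against 103 and 85.8 CPM) differed far less. Cells with an Abcg1 UMI were deeper before thinning, at medians of 11450 and 12116 against 7615 and 10063 UMIs. In sinusoidal cells no such gap was seen, since Fabp4 stood at 22357 and 16175 CPM with and 22693 and 17317 CPM without an Abcg1 UMI.

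RNA of other cells was measured in the same stromal cells. The summed level of 12 endothelial markers was 31.9, 148, 20.5 and 23.7 CPM, with 2, 0, 1 and 0 of the 12 at 0 counts, against 8992 to 12393 CPM in the endothelial class. In irradiated control mice it was 365 CPM in cells with and 59.8 CPM in cells without an Abcg1 UMI, whereas in irradiated Vegfc-deleted mice both were at 31.9 CPM. Among LepR+ stromal cells with no UMI of those markers, Abcg1 was at 60.5, 53.9, 2.03 and 0.675 CPM (log2 4.84 and 6.21). The part of endothelial RNA in the difference was not tested. The summed level of 8 macrophage markers was 849 CPM in irradiated Vegfc-deleted mice and 26.0 to 40.9 CPM in the other libraries, with 0, 0, 2 and 1 of the 8 at 0 counts. Of this, Lyz2, shared with neutrophils, made up 819 CPM in the irradiated Vegfc-deleted library, where the neutrophil genes S100a8 and S100a9 stood at 25585 CPM (910, 276 and 102 CPM in the other libraries). With no UMI of a macrophage marker or of Ptprc, Abcg1 was at 77.5, 44.2, 1.68 and 0.798 CPM.

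**Figure D2:**
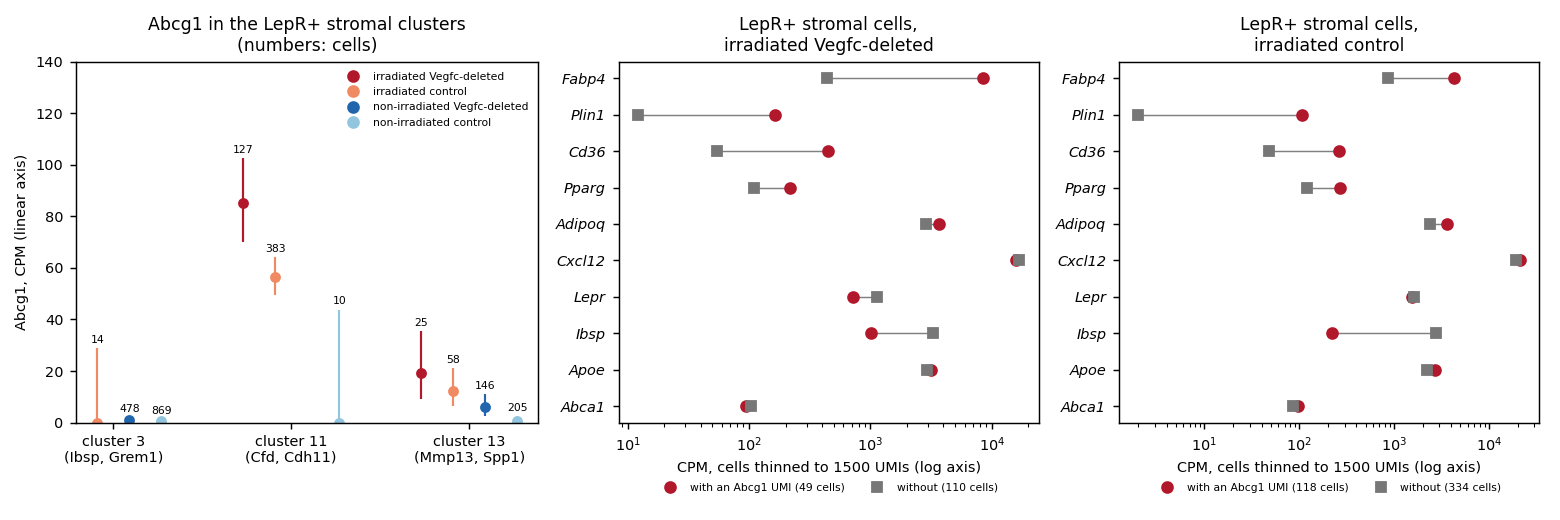
Abcg1 in LepR+ stromal cells. The left panel gives CPM in the 3 clusters of the class by library on a linear axis, with exact 95% intervals and the number of cells above each point; the other panels compare irradiated cells with and without an Abcg1 UMI, thinned to 1500 UMIs, for 10 genes in CPM on a log axis, with Fabp4 at 8490 against 442 CPM in Vegfc-deleted and 4220 against 852 CPM in control mice.

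Sinusoidal endothelial cells also held more Abcg1 after irradiation, from a higher non-irradiated level. The level was 222 and 219 CPM in irradiated Vegfc-deleted and control mice, against 59.5 and 88.6 CPM in non-irradiated ones, and the irradiated libraries were again both above the others. The log2 ratios were 1.89 (1.69 to 2.11) in Vegfc-deleted and 1.31 (1.13 to 1.49) in control mice. Cluster 0 alone gave 221 and 220 CPM in irradiated against 63.4 and 119 CPM in non-irradiated mice, the last 2 values from 24 and 20 UMIs. Endothelial cells held 41.9% and 75.7% of all Abcg1 UMIs of kept cells in the irradiated libraries against 27.7% and 35.3% in the non-irradiated ones. LepR+ stromal cells held 3.78% and 5.18% against 1.66% and 0.901%. These shares follow class size as well as level. Endothelial cells were 16.7% and 37.3% of kept cells in the irradiated libraries against 6.93% and 6.05% in the non-irradiated ones. For LepR+ stromal cells these percentages were 3.91% and 11.9% against 12.1% and 21.4%.

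In other classes Abcg1 did not follow that direction throughout. Monocytes or macrophages stood at 151 and 229 CPM in irradiated against 161 and 153 CPM in non-irradiated mice. Their log2 ratios were -0.11 (-0.51 to 0.35) in Vegfc-deleted and 0.57 (0.17 to 1.03) in control mice. In irradiated control mice a single cell held 90 of the 386 UMIs, and the top 5% of cells held 49.7%. The interval of the control ratio does not cover this concentration. In B-lineage cells Abcg1 was lower after irradiation, at 27.8 and 31.4 CPM against 61.9 and 78.4 CPM (log2 -1.14 and -1.32). Cluster 21, led by Igll1 and Vpreb1 of early B cells, held 79 and 211 of the irradiated against 1 and 0 of the non-irradiated cells of this class. Neutrophils had 15.9 and 22.6 CPM in irradiated against 8.67 and 12.5 CPM in non-irradiated mice. Here too the clusters differed, with 625 and 79 irradiated against 6 and 0 non-irradiated cells in cluster 7 and 2 and 1 against 210 and 57 in cluster 23. Osteolineage cells, with at least 20 cells in the irradiated libraries alone, had 1.24 and 1.95 CPM, and megakaryocytes at most 2.99 CPM. By level among named classes of at least 20 cells, sinusoidal cells led in irradiated Vegfc-deleted mice, ahead of monocytes or macrophages beyond the intervals. Monocytes or macrophages and endothelial cells led in both control libraries, where their intervals overlapped with irradiation (229 and 219 CPM) and did not without it (153 and 88.6 CPM). In the non-irradiated libraries the endothelial level overlapped that of B-lineage cells (61.9 and 78.4 CPM).

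Abca1, which passes cholesterol and phospholipid to lipid-poor apolipoproteins, did not share the stromal pattern of Abcg1. In LepR+ stromal cells it was at 70.8 and 72.7 CPM in irradiated and at 73.9 and 62.2 CPM in non-irradiated mice, log2 ratios of -0.06 (-0.35 to 0.22) in Vegfc-deleted and 0.23 (0.04 to 0.41) in control mice. All 4 levels were close, and 44.0%, 45.7%, 44.3% and 39.4% of cells held a UMI. In sinusoidal cells it was lower after irradiation, at 139 and 145 CPM against 181 and 194 CPM (log2 -0.39 and -0.42), the opposite direction to Abcg1 in the same cells. In osteolineage cells of irradiated mice Abca1 was at 108 and 138 CPM, the second within the counting error of sinusoidal cells, while Abcg1 was near the erythroid background there.

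Monocytes or macrophages had the highest Abca1 of the named classes in every library, at 158, 188, 316 and 235 CPM. The log2 ratio was -1.0 (-1.30 to -0.68) in Vegfc-deleted and -0.33 (-0.68 to 0.05) in control mice. The first value reached 0.02 with a stricter cell filter and 0.12 when cells weighed equally. Unnamed cluster 26, led by capillary genes such as Ly6c1 and Gpihbp1, was at 210 and 208 CPM in irradiated mice. These levels come from 17 and 61 cells with 114543 and 774358 UMIs in all, and the cluster was not ranked against the named classes. B-lineage cells held 0 and 19 Abca1 UMIs in irradiated Vegfc-deleted and control mice (0 and 3.01 CPM), against 101 and 90 UMIs (19.5 and 20.3 CPM) in non-irradiated mice. That is at least 13.8-fold lower in Vegfc-deleted mice, taking 3 counts as the floor of the library at 0, and a log2 ratio of -2.72 (-3.55 to -2.03) in control mice. Abca1 and Abcg1 were thus both lower in the irradiated B-lineage class, whose clusters differed between libraries. Cluster 10, led by Vpreb3 and Ly6d, held 4 and 15 irradiated against 252 and 261 non-irradiated cells, and the part of this mixture was not tested. Erythroid cells had at most 1.00 CPM of Abca1.

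Apoe, the apolipoprotein that takes up exported cholesterol and carries it to other cells, was abundant in the same 3 classes. LepR+ stromal cells had 2443 and 2237 CPM in irradiated and 2986 and 3560 CPM in non-irradiated mice, with log2 ratios of -0.29 (-0.34 to -0.24) in Vegfc-deleted and -0.67 (-0.70 to -0.64) in control mice. Both irradiated libraries were below both others. In the shared cluster 13 the difference was wider, at 502 and 519 CPM in irradiated against 3271 and 3440 CPM in non-irradiated mice. The log2 ratio there was -2.73 in control mice. The mixture of cluster 13 may also differ between libraries, as given above, and its part was not tested. Cluster 11, which held most irradiated cells, had 3200 and 2644 CPM. Sinusoidal cells had 1867 and 1525 CPM in irradiated and 2617 and 1884 CPM in non-irradiated mice, log2 ratios of -0.49 and -0.31. Each irradiated library was below the non-irradiated one of its genotype. The intervals of irradiated Vegfc-deleted (1832 to 1902 CPM) and non-irradiated control mice (1836 to 1933 CPM) overlapped.

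Monocytes or macrophages had 2772 and 1692 CPM of Apoe in irradiated against 4482 and 3217 CPM in non-irradiated mice, log2 ratios of -0.69 and -0.93. The class was not the same mixture in each library. Cluster 12, led by the complement genes C1qa and C1qc and by Cd5l, held 240, 85, 70 and 39 of its cells at a median of 1335 UMIs, and cluster 16, with Ccr2 and antigen presentation genes among its leading genes, held 310, 52, 8 and 6. Within cluster 12 alone Apoe was at 4542 and 3510 CPM in irradiated and 3754 and 3031 CPM in non-irradiated mice, so the lower level of the whole class was not seen there. Basophils or mast cells had 134 and 94.6 CPM of Apoe in irradiated against 500.5 and 436 CPM in non-irradiated mice, log2 ratios of -1.89 (-2.53 to -1.33) and -2.18 (-2.77 to -1.69), from 25, 35, 26 and 216 cells. The direction was not the same in every class. T or NK cells of Vegfc-deleted mice had 104 CPM in irradiated against 3.98 CPM in non-irradiated mice, a log2 ratio of 4.13 (2.22 to 10.02) from 280 UMIs of 334 cells against 1 UMI of 36 cells. Megakaryocytes had 59.8 and 59.1 CPM in irradiated against 44.6 and 31.9 CPM in non-irradiated mice, log2 ratios of 0.44 (-0.42 to 1.21) and 0.88 (0.29 to 1.53). Erythroid cells had 17.8 and 26.4 CPM in irradiated against 9.69 and 15.6 CPM in non-irradiated mice (log2 0.88 and 0.76). The part of RNA carried over from other cells in the T or NK, megakaryocyte and erythroid values was not tested. Osteolineage cells of irradiated mice had 20.6 and 21.9 CPM.

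Nr1h3, which encodes LXR alpha, was found mainly in 3 classes. Monocytes or macrophages had 88.7, 147, 187 and 147 CPM, LepR+ stromal cells 32.4, 32, 17.8 and 18.9 CPM and sinusoidal cells 23.3, 23.3, 12.3 and 11.3 CPM. Among the other named classes of at least 20 cells, T or NK cells were highest, at up to 7.44 CPM, and basophils or mast cells had 0 counts in all 4 libraries. In LepR+ stromal cells Nr1h3 was higher in both irradiated libraries, with log2 ratios of 0.87 (0.39 to 1.33) in Vegfc-deleted and 0.76 (0.46 to 1.06) in control mice. This did not hold in the shared cluster 13, where the ratios were -1.26 and -0.66 from 4, 12, 31 and 44 UMIs, nor in Vegfc-deleted mice when cells were thinned (-0.20). In cluster 11, which held few non-irradiated cells, Nr1h3 was at 43.0 and 36.7 CPM in irradiated mice.

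Sinusoidal Nr1h3 was higher in irradiated mice by 0.91 (0.42 to 1.44) in Vegfc-deleted and 1.03 (0.54 to 1.59) in control mice on the log2 scale, or by 0.04 and 0.52 when cells were thinned, where it rests on 16, 50, 8 and 7 UMIs. In monocytes or macrophages the ratios were -1.09 (-1.47 to -0.66) and -0.01 (-0.44 to 0.47). Within cluster 12 Nr1h3 was at 263 and 322 CPM in irradiated and 239 and 153 CPM in non-irradiated mice, so the lower class level in Vegfc-deleted mice was not present in that cluster.

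The receptor partners were measured beside it. Nr1h2, which encodes LXR beta, was at 38.9, 48.3, 56.6 and 52.0 CPM in LepR+ stromal and 49.1, 57.6, 58.4 and 51.1 CPM in sinusoidal cells, with no direction common to both classes. Rxra, which encodes the retinoid X receptor alpha, was higher in irradiated libraries in both classes. It was at 42.1 and 58.1 against 32.9 and 27.6 CPM in LepR+ stromal cells, where the intervals of the Vegfc-deleted pair overlapped. In sinusoidal cells it was at 86.0 and 78.1 against 59.2 and 52.7 CPM. Monocytes or macrophages had less Rxra after irradiation, at 43.8 and 57.0 against 92.1 and 67.6 CPM, with overlapping intervals in control mice. Rxrb, which encodes the beta form, stood at 22.7 and 31.1 against 21.6 and 24.8 CPM in LepR+ stromal cells. Pparg, a nuclear receptor that also pairs with the retinoid X receptor, was at 142 and 143 CPM in irradiated against 60.0 and 63.1 CPM in non-irradiated LepR+ stromal cells. In sinusoidal cells Pparg was lower after irradiation, at 251 and 263 against 293 and 396 CPM, and in monocytes or macrophages at 36.6 and 49.9 against 105 and 115 CPM, although at 145, 137, 133 and 127 CPM within cluster 12. The stromal direction of Pparg was therefore the same as that of Abcg1, and the endothelial direction was the opposite one.

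Mylip, the LXR-induced ubiquitin ligase, was lower after irradiation in many classes. In Vegfc-deleted mice its ratio was below 0 in all 8 named classes with at least 30 UMIs in a library and at least 1.5-fold lower in 7, and in control mice it was below 0 in 6 of 8 and at least 1.5-fold lower in 4. B-lineage cells had 24.1 and 27.4 CPM in irradiated against 148 and 208 CPM in non-irradiated mice, log2 ratios of -2.61 (-3.06 to -2.21) and -2.92 (-3.17 to -2.69). The part of the differing B-lineage clusters in these values was not tested. Basophils or mast cells had 31.1 and 94.6 CPM against 204 and 339 CPM, monocytes or macrophages 35.3 and 34.5 against 109 and 99.9 CPM, and LepR+ stromal cells 38.4 and 53.2 against 76.7 and 87.9 CPM. In each of these 4 classes both irradiated libraries were below both non-irradiated ones. The exceptions in control mice were neutrophils, at 0.52 (46.0 against 31.97 CPM), and megakaryocytes, at 0.58 (32.8 against 21.6 CPM).

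Sinusoidal cells had by far the highest Mylip, at 469 and 468 CPM in irradiated and 909 and 580 CPM in non-irradiated mice. In the irradiated libraries they held 68.8% and 82.5% of all its UMIs and were 16.7% and 37.3% of kept cells. The log2 ratio was -0.96 (-1.03 to -0.88) in Vegfc-deleted and -0.31 (-0.38 to -0.23) in control mice. Cluster 0 alone gave 467 and 466 CPM against 748 and 487 CPM. In monocyte or macrophage cluster 12 Mylip was also lower, at 63.1 and 47.8 CPM in irradiated against 137 and 93.4 CPM in non-irradiated mice, unlike Apoe and Nr1h3. Erythroid cells had 13.9 and 48.7 CPM of Mylip in irradiated against 39.2 and 67.0 CPM in non-irradiated mice. Their clusters differed, with cluster 4 holding 4 and 8 irradiated against 677 and 602 non-irradiated cells, and the part of this in the result was not tested.

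Srebf1, which encodes the sterol regulated factor behind fatty acid synthesis, was spread over all the larger classes. Sinusoidal cells had 42.2 and 42.2 CPM in irradiated against 25.5 and 28.1 CPM in non-irradiated mice, log2 ratios of 0.72 (0.38 to 1.09) and 0.58 (0.26 to 0.92), with both irradiated libraries above the others. LepR+ stromal cells had 35.1 and 25.2 against 18.3 and 22.1 CPM, ratios of 0.95 (0.48 to 1.39) in Vegfc-deleted and 0.19 (-0.13 to 0.50) in control mice. The first was 0.24 without cells holding macrophage or Ptprc UMIs, 0.17 when thinned and -0.53 in the shared cluster. Monocytes or macrophages had 21.9 and 38.0 CPM in irradiated and 46.0 and 49.9 CPM in non-irradiated mice, where the last 2 values rest on 14 and 17 UMIs. Ratios were -1.12 (-1.87 to -0.16) in Vegfc-deleted mice, or 0.04 when cells weighed equally, and -0.42 (-1.18 to 0.47) in control mice.

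**Figure D3:**
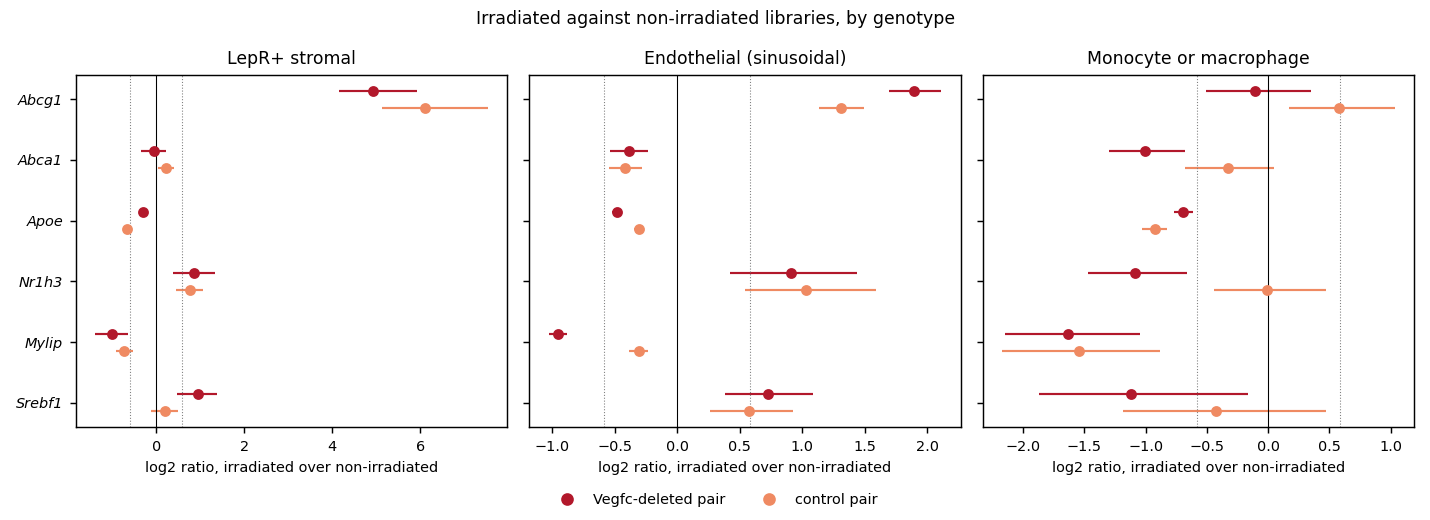
Log2 ratio of irradiated over non-irradiated CPM for the 6 genes in 3 cell classes, for the Vegfc-deleted and the control pair of libraries, with exact 95% intervals and dotted lines at 1.5-fold. Abcg1 in LepR+ stromal cells stands far to the right, at 4.92 and 6.10, and Mylip lies left of 0 in all 3 classes.

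The 6 genes were set against all genes with at least 30 UMIs in a library. In LepR+ stromal cells of Vegfc-deleted mice 3 of 6 (Abcg1, Nr1h3 and Srebf1) were at least 1.5-fold higher after irradiation, where 16.3% of all genes were, and 1 of 6 (Mylip) was lower, where 13.4% were. In control mice 2 of 6 were higher, against 17.4% of all genes, and 2 of 6 (Apoe and Mylip) lower, against 9.41%. Sinusoidal cells had 3 of 6 higher in Vegfc-deleted mice (15.3% of all genes) and 1 of 6 lower (7.32%), and 2 of 6 higher in control mice (18.2%) and 0 of 6 lower (7.68%). Monocytes or macrophages had 0 of 6 higher in Vegfc-deleted mice (27.4% of all genes) and 5 of 6 lower (17.2%), and 0 of 6 higher in control mice (24.6%) and 2 of 6 lower (14%). The median log2 ratio of the 6 genes was 0.41 and 0.21 in LepR+ stromal cells (all genes 0.09 and 0.17), 0.17 and 0.14 in sinusoidal cells (0.16 and 0.18) and -1.05 and -0.38 in monocytes or macrophages (0.14 and 0.14), Vegfc-deleted pair first. In cluster 12 alone, Abcg1 was at 229 and 281 CPM in irradiated against 171 and 120 CPM in non-irradiated mice and Abca1 at 294 and 307 against 398 and 198 CPM. The part of the depth gap given above in the macrophage values was not tested.

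Other genes of sterol and fat handling in LepR+ stromal cells are given for comparison. Every list count of this class stands beside all its genes. Of these, 16.3% in Vegfc-deleted and 17.4% in control mice were at least 1.5-fold higher, and 13.4% and 9.41% lower. Among 8 LXR receptors and cofactors, 1 in Vegfc-deleted and 3 in control mice (Nr1h3, Rxra and the corepressor gene Nrip1) were at least 1.5-fold higher and 0 were lower. Of the other LXR target genes, 5 of 12 and 5 of 13 were higher and 3 and 2 were lower. Scd1, the fatty acid desaturase, was at 308 and 53.2 CPM in irradiated against 38.3 and 34.0 CPM in non-irradiated mice, and Lpl, the lipoprotein lipase, at 7440 and 8717 against 3505 and 3278 CPM. Pltp, a phospholipid transfer protein, was lower at 72.4 and 88.8 against 120 and 138 CPM. Their median log2 ratios were 0.06 and 0.42, near those of all genes in Vegfc-deleted mice.

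Of 24 cholesterol synthesis and uptake genes, 2 and 1 were higher and 7 and 5 lower, with medians of -0.13 and -0.14. Of 7 efflux and lipoprotein genes, 2 and 1 were higher, and Apod and Clu, both apolipoproteins, were the 2 lower in each genotype, Apod at 35.7 and 52.3 against 191 and 203 CPM (medians 0.19 and 0.22). Lysosomal cholesterol, esterification and oxysterol genes had 0 of 7 and 1 of 8 higher and 0 lower (medians 0.08 and 0.25).

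The PPARG and fat cell list, which shares Nr1h3 with the genes above and Lpl with the LXR targets, had 9 of 12 and 9 of 11 members higher and 1 lower, with medians of 1.16 and 0.96. Plin1 was at 81.6 and 37.1 CPM in irradiated mice against 0.158 CPM (1 UMI) and 0 counts in non-irradiated mice, in control mice at least 135-fold higher with 3 counts as the floor. Fabp4 was at 5842 and 2134 against 67.3 and 62.3 CPM. With Abcg1 these were the 3 highest ratios of all listed genes in the class, ranked by whichever genotype's ratio was nearer to 0. Cebpb, an early fat cell factor that also answers stress, was lower at 212 and 257 against 1155 and 657 CPM. Fat cell genes were in view when the lists were drawn up, so their higher level is no independent evidence.

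**Figure D4:**
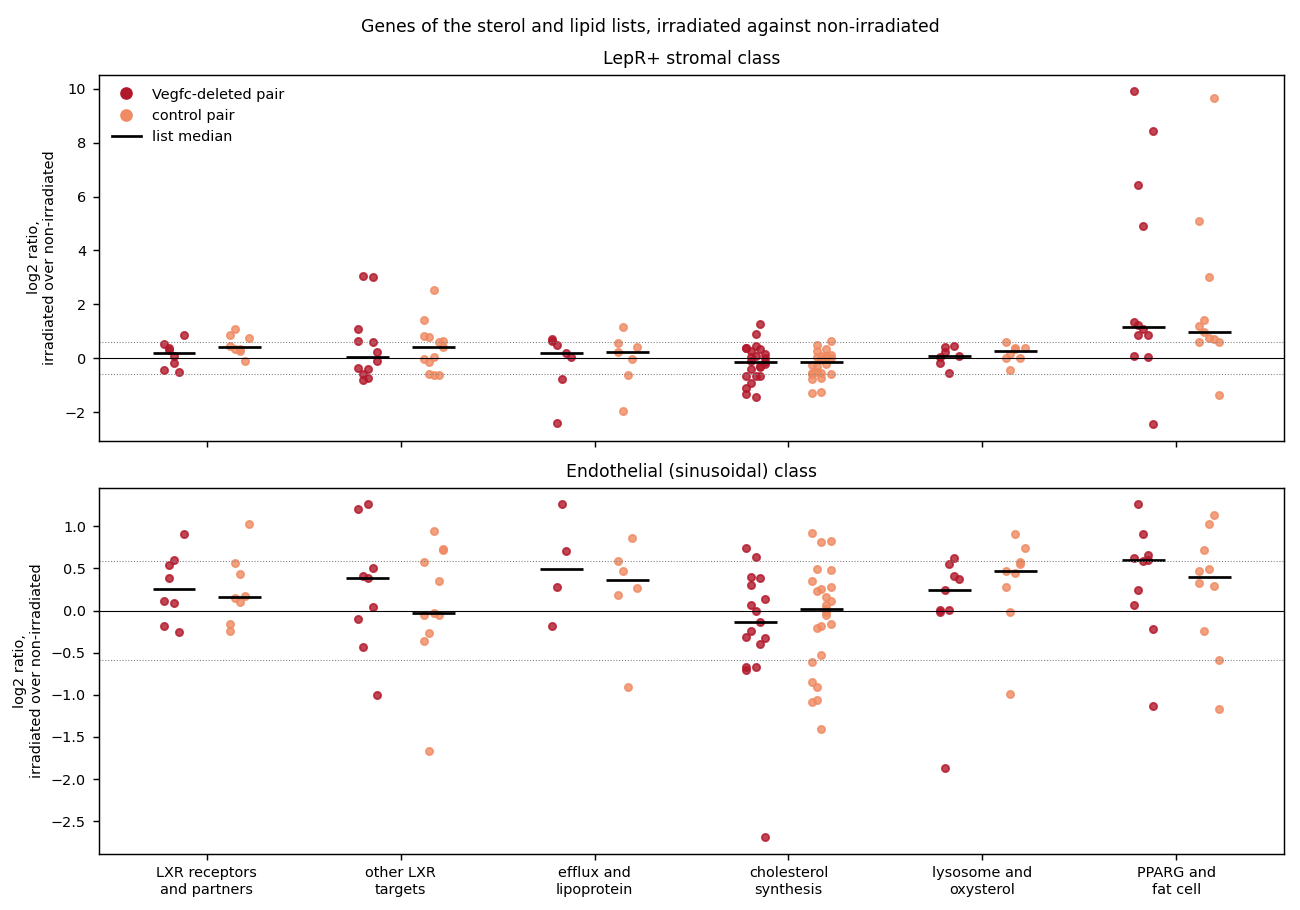
Irradiated over non-irradiated log2 ratios of the listed genes in LepR+ stromal and sinusoidal endothelial cells, by list and genotype, for genes with at least 30 UMIs in a library. Each point is a gene and each black line a list median. In LepR+ stromal cells the fat cell list has medians of 1.16 and 0.96 and the cholesterol synthesis list of -0.13 and -0.14.

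In sinusoidal cells, ranked in the same way, Abcg1 had the highest ratio of all listed genes. Nr1h3 and Lrp8 came next, and Lrp8, a receptor for apolipoprotein E, was at 25.8 and 26.2 CPM in irradiated against 10.7 and 14.2 CPM in non-irradiated mice. Across all genes with enough UMIs in sinusoidal cells, 15.3% in Vegfc-deleted and 18.2% in control mice passed 1.5-fold upwards after irradiation. Downwards, 7.32% and 7.68% of them did. The list counts that follow are to be read against these shares. Other LXR targets had 2 of 9 and 3 of 11 higher, Scd1 and Lpl among them in both genotypes, and 1 lower, Pltp. Cholesterol synthesis and uptake had 2 of 17 and 3 of 25 higher and 4 and 6 lower, among them Insig1, a brake on sterol synthesis, at 13.1 and 18.3 against 20.8 and 27.8 CPM. Srebf2, the factor that drives cholesterol synthesis, was at 20.3 and 20.9 against 32.3 and 30.1 CPM. Cebpb was again low, at 211 and 259 against 464 and 584 CPM. The fat cell list had 6 of 10 and 3 of 10 higher and 1 and 2 lower, receptors and cofactors 2 of 8 and 1 of 8 higher and 0 lower, efflux genes 2 of 4 and 1 of 6 higher and 0 and 1 lower, and lysosomal genes 1 of 9 and 2 of 9 higher and 1 and 1 lower. Median log2 ratios in Vegfc-deleted and control mice were 0.25 and 0.16 for receptors and cofactors, 0.39 and -0.03 for other LXR targets, 0.49 and 0.36 for efflux genes, -0.14 and 0.01 for cholesterol synthesis, 0.25 and 0.47 for lysosomal and 0.60 and 0.40 for fat cell genes, where all genes had 0.16 and 0.18.

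In monocytes or macrophages the LXR target Pltp had the highest ratio of the listed genes by the same ranking. It was at 318 and 291 CPM in irradiated against 62.5 and 41.1 CPM in non-irradiated mice. Its log2 ratios were 2.31 and 2.77, the opposite direction to LepR+ stromal cells. The lipid droplet gene Plin2 (302 and 417 against 158 and 156 CPM) and the lipase inhibitor gene Angptl4 (39.9 and 70.1 against 19.7 and 20.6 CPM) followed. Mylip, Pparg and Nrip1 were lowest, with Nrip1 at 54.5 and 70.7 against 138 and 147 CPM. The part of the differing macrophage clusters in the Pltp, Plin2, Angptl4 and Nrip1 values was not tested. The list counts of this class stand beside all its genes, of which 27.4% and 24.6% were at least 1.5-fold higher and 17.2% and 14% lower. Of the other LXR targets 2 of 10 and 2 of 8 were higher and 6 and 3 lower, and of cholesterol synthesis genes 2 of 23 and 5 of 13 were higher and 7 and 1 lower. Receptors and cofactors had 1 of 8 and 0 of 8 higher and 3 and 3 lower, efflux genes 0 of 5 and 0 of 3 higher and 3 and 1 lower, lysosomal genes 0 of 9 and 2 of 7 higher and 1 and 0 lower, and fat cell genes 2 of 10 and 5 of 10 higher and 5 and 1 lower.

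The genotypes were compared within the irradiated and within the non-irradiated libraries. In sinusoidal cells the Vegfc-deleted over control log2 ratio with irradiation was 0.01 (-0.08 to 0.11) for Abcg1, 0.00 (-0.06 to 0.07) for Mylip and 0.00 (-0.21 to 0.21) for Srebf1, and 0.29 (0.26 to 0.32) for Apoe. Without irradiation Mylip was higher in Vegfc-deleted mice by 0.65 (0.57 to 0.73), Apoe by 0.47 (0.43 to 0.52), and Abcg1 was lower, at -0.58 (-0.84 to -0.31). The lower control level of Mylip and the higher control level of Abcg1 were thus seen in the non-irradiated endothelial libraries and not in the irradiated ones. The difference between these differences was not tested.

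LepR+ stromal Abcg1 was higher in Vegfc-deleted mice by 0.46 (0.13 to 0.77) with irradiation and by 1.64 (0.25 to 3.25) without it, where the levels of 2.05 and 0.639 CPM rest on 13 and 7 UMIs, beside erythroid levels of 0.107 and 0.0997 CPM. Mylip was lower in irradiated Vegfc-deleted LepR+ stromal cells, at -0.46 (-0.87 to -0.09), and Nr1h3 was at 0.03 (-0.43 to 0.45). Irradiated monocytes or macrophages of Vegfc-deleted mice had more Apoe, by 0.71 (0.66 to 0.77), and less Abcg1 (-0.61), Nr1h3 (-0.73) and Srebf1 (-0.80) than those of control mice. The top 5% of cells held 51.3% of the Apoe UMIs in Vegfc-deleted and 67.7% in control mice, which the interval does not cover. These class values come with 310 of 550 against 52 of 137 cells in cluster 16, and when cells were thinned Abcg1 was at 0.09 and Srebf1 at 0.15. Mylip in irradiated erythroid cells was 13.9 CPM in Vegfc-deleted and 48.7 CPM in control mice, a log2 ratio of -1.81 (-2.13 to -1.51), and 39.2 and 67.0 CPM without irradiation, at -0.77 (-0.87 to -0.68). Cluster 18, the deepest of the erythroid clusters at a median of 65437 UMIs a cell, held 85 of 418 cells in irradiated Vegfc-deleted and 28 of 539 in irradiated control mice, and its part in the result was not tested.

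Over the 39 sums of a class in a library with at least 20 cells, which share libraries and depth, the levels of the 6 genes went together to different degrees. Pearson's r of log2(CPM + 1) was highest for Abca1 with Nr1h3 (0.80) and Apoe with Nr1h3 (0.80) and lowest for Nr1h3 with Mylip (0.27). Among 8367 other genes that reached 50 CPM, those most like Nr1h3 were Cmbl (0.92), the receptor tyrosine kinase genes Mertk (0.92) and Axl (0.92), Rxra (0.89) and Dse (0.89). Abca1 was nearest to Mertk (0.89), Kctd12b (0.89), Sbf2 (0.88), Smagp (0.88) and Plod1 (0.87), and Apoe to Ttyh2 (0.93), Slco2b1 (0.91), Trf (0.89), Vcam1 (0.89) and Hfe (0.89). The transporter Abcg1 was nearest to Ggta1 (0.86), 9930111J21Rik2 (0.84), the NF-kB subunit gene Rela (0.84), Trim30a (0.84) and Gng2 (0.84). Srebf1 was nearest to Gmfb, Emc1, Fem1b and Lrp6 (0.82 each) and Mfsd1 (0.80). Mylip had the weakest likenesses, to Jund (0.76), 4921524J17Rik (0.75), Rnf2 (0.75), Fcho2 (0.75) and Pnrc1 (0.74).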

How the data were processed

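Single-cell RNA was sequenced from 4 libraries. The authors deposited raw UMI counts per gene and barcode, made with Cell Ranger 2.1.1 on mm10 per the submitters' processing notes, while the file headers name software version 3.1.0. From these, cells with at least 500 genes and at most 10% mitochondrial UMIs were kept, and doublets were marked with Scrublet (174, 138, 326 and 325 removed, 4.11% to 6.19% marked before the other filters). Cells of all libraries were clustered together (scanpy 1.11.5, leidenalg 0.10.2; 2000 variable genes, 40 components, 20 neighbours, resolution 1), with 91 list genes, the 6 among them, kept out of the variable genes. Clusters were named from marker lists (score of at least 2, lead of 1 over the next list, 3 detected markers). A lead of 2 markers among the 10 leading genes could replace the score lead, and endothelial lists counted as 1. A cluster stayed unnamed if another list had more markers among those 10 genes, or if it was shallow with none of its own. This rule was loosened, and a cluster led by osteoclast genes was kept unnamed, after the clusters had been seen. Class names are therefore rebuilt and may differ from the study's.

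For each class of each library the UMI counts were added up and expressed as CPM; log2 ratios use a prior of 0.5 counts, and intervals are exact (Poisson, binomial, or conditional on the sum). A gene entered a list count with at least 30 counts in 1 of the libraries compared. With 1 library a group no test was made, and 1.5-fold marks size only. Named were the 6 genes in classes of at least 20 cells, the receptor genes, the 3 highest and lowest listed genes a class and the 5 most alike genes; Scd1, Lpl, Pltp, Cd36 and the macrophage cluster values were added after their values had been seen. The genes and lists were chosen with earlier results of these data known. Positions come from the GENCODE annotation of GRCm38. Alternatives included edgeR 4.0.16 TMM factors. Steps were tested on simulated data. 1 of the listed genes is not reported here by name.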

Additional observations from a re-analysis of the deposited data

How the results depend on the processing

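No paired analysis was possible because each group has 1 library. Over 80 log2 ratios of the 6 genes and 712 alternative values, 566 stayed in their interval or on their side, 136 moved and 10 reversed; thinning to 1500 UMIs moved 42 and reversed 4 of 80, the stricter filter (1000 genes, 5% mitochondrial UMIs) moved 22 and reversed 1, and adding the list genes to the clustering moved 5. The LepR+ stromal Abcg1 ratio ran from 4.71 to 5.49 in Vegfc-deleted and from 5.82 to 7.09 in control mice, except in the shared cluster alone, at 1.69 and 4.23, where fewer cells and UMIs enter. Reversed values were, in LepR+ stromal cells, Nr1h3 in Vegfc-deleted mice at -0.20 when thinned and -1.26 in the shared cluster, Nr1h3 in control mice at -0.66 there and Srebf1 in Vegfc-deleted mice at -0.53 there. In monocytes or macrophages they were irradiation ratios of Vegfc-deleted mice for Abca1, at 0.022 with the stricter filter and 0.119 with cells weighing equally, and for Srebf1, at 0.041 with cells weighing equally, and thinned genotype ratios for Abcg1 (0.087) and Srebf1 (0.152). Osteolineage Apoe in control mice was at 0.61 when thinned. The shared cluster, the unnamed clusters and the cells free of endothelial UMIs were chosen after seeing the data. With a minimum of 10 counts the monocyte or macrophage list entries of control mice were 22 higher and 14 lower, against 14 and 9 at 30 counts, and genes 1.5-fold lower in sinusoidal cells were 1114 and 1325, against 728 and 868. All genes of that macrophage comparison were then 2510 higher and 1731 lower, against 1616 and 916. With a minimum of 1 count, genes higher in LepR+ stromal cells were 4556 and 4857, against 1692 and 1987, and genes lower 2396 and 2425, against 1392 and 1073. In monocytes or macrophages genes lower were then 5876 and 4453, against 1636 and 916, and in control mice 3129 were higher. In sinusoidal cells 3034 and 4189 were lower and in Vegfc-deleted mice 3847 higher, against 1523. List entries lower were 13 and 17 in sinusoidal cells, against 7 and 11, and 41 in monocytes or macrophages of Vegfc-deleted mice, against 25. The cause of these shifts was not tested. Depth limits the non-irradiated macrophage values, from 78 and 45 cells.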
